A study of Mus musculus with 12 samples.

Results

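The 39 genes described here act in G2 and mitosis. They were chosen by name, as rows of the 4 gene expression matrices, and all 39 were present among the 33696 genes of the matrices. They were followed as UMIs summed per tumour pool and T cell lineage, and through the share of cells that carried many of them at once, called G2/M cells. Together they held 67705 UMIs, 0.110% of all UMIs in the 2740 cells kept.

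The cells came from tumours of MC38, a mouse colorectal cancer line, grown in mice heterozygous for Kaede, a protein that turns from green to red under violet light. All 6 conditions shared the line, the genotype and illumination of the tumour-draining lymph node on day 14 after tumour inoculation, so that red cells had carried Kaede through the illuminated node. The conditions were no radiation (NT) or a single 12 Gy dose (RT) with harvest 24 h later (day 1), NT or RT with harvest at 72 h (day 3), and FTY720, a drug that blocks lymphocyte exit from lymph nodes, given as 10 µg on day 15, without radiation (FTY720) or with it (RT with FTY720), both at day 3. Each condition had 2 replicate pools, each of 4 tumours from 4 mice, which gave 12 pools and, with red and green cells hashed separately, 24 hashed samples. Cells were enriched with CD4 and CD8 beads and sorted as live CD90.2-positive cells, so tumour and stromal cells had been selected against and the red share was set by the sort. Replicates 1 and 2 of NT day 1, RT day 1 and NT day 3 each shared a 10x well, as did those of the other 3 conditions. Radiation at day 1 and under FTY720 was therefore compared within a well, whereas RT against NT at day 3 lay across wells, where well and treatment cannot be told apart.

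A cell that has copied its DNA in S phase builds up mitotic proteins in G2 and then divides. Cyclin B with CDK1 drives entry into mitosis, Aurora kinases and the kinetochore attach and check chromosomes on the spindle, and the anaphase-promoting complex with CDC20 and UBE2C degrades cyclin B so that the cell can exit and split. Most of these genes are transcribed only as cells approach mitosis, from promoters with a CHR element (cell cycle genes homology region) and CCAAT boxes. They are bound by the DREAM complex, which represses them in resting cells and, through p53 and its target p21 (Cdkn1a), after DNA damage, and by MuvB with B-MYB and FOXM1, which activates them. T cells that meet antigen in tumours divide, so the same genes mark expanding lymphocytes.

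The pools held 39 to 587 cells and 918582 to 13456449 UMIs, with medians of 15261 to 23606 UMIs per cell, and the pools of RT day 3, FTY720 and RT with FTY720 were the smallest, at 39 to 106 cells. No barcode was shared between wells. The lineages were 1329 CD8-like, 599 Treg-like (regulatory T cells, led by Foxp3) and 409 CD4 conventional-like cells, and clusters of 216, 131 and 54 cells were kept out of these 3. The clusters of 131 and 54 cells were led by naive T cell genes such as Ccr7, Lef1 and Igfbp4, while the top genes of the cluster of 216 cells were Klra7, Klra6, Fcer1g and Eomes among others, and it is left unnamed. Of the 92 G2/M cells 69 lay in mixed clusters that were split on lineage genes, so lineage genes are partly fixed by the call. Of the 65 in the CD8-like class 100% had UMIs of Cd8a and 0% of Cd4, and of the 18 in the Treg-like class 100% had UMIs of Foxp3, 94.4% of Cd4 and 22.2% of Cd8b1. Of the 8 in the CD4 conventional-like class 100% had UMIs of Cd4 and 25% of Cd8b1. Markers of MC38 cells summed to 4.15 to 9.19 CPM (UMIs scaled to 1e+06 per sum) in the unirradiated and 1.09 to 15.2 CPM in the irradiated pools, with Krt8, Krt19 and Krt7 at 0, and to 4.37 CPM in G2/M cells against 6.64 CPM in the other cells. Markers of B cells stood at 99.4 CPM in G2/M cells and 92.4 CPM in the others, and those of myeloid cells at 144 and 165 CPM, with S100a8 and S100a9 at 0. Fibroblast markers were at 0.243 CPM in G2/M cells with Pdgfra at 0, and endothelial markers at 40.6 CPM against 70.6 CPM in the others. NK or innate lymphoid markers stood at 292 against 434 CPM, and the 2 of 6 gamma delta T cell markers present in the matrices at 0.243 against 7.31 CPM.

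A cell was called G2/M when at least 8 of the 39 members had a UMI after each cell had been thinned at random to 5000 UMIs. The 111 cells below that depth were left out. Of 2629 cells, 92 (3.5%) passed. Most cells carried few members: 788 had UMIs of 1 and 755 of 2, while the highest cell had 33. The call cuts a continuous range, with 111 cells at 5 to 7 members and 26 at 8 to 10. Before thinning the G2/M cells had a median of 278.5 member UMIs against 10 in the other cells, and 43111.5 UMIs in all against 20288. Cells with 2 or more productive TCR beta chains, a sign of doublets, made up 3.26% of G2/M cells and 3.43% of the others.

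**Figure D1:**
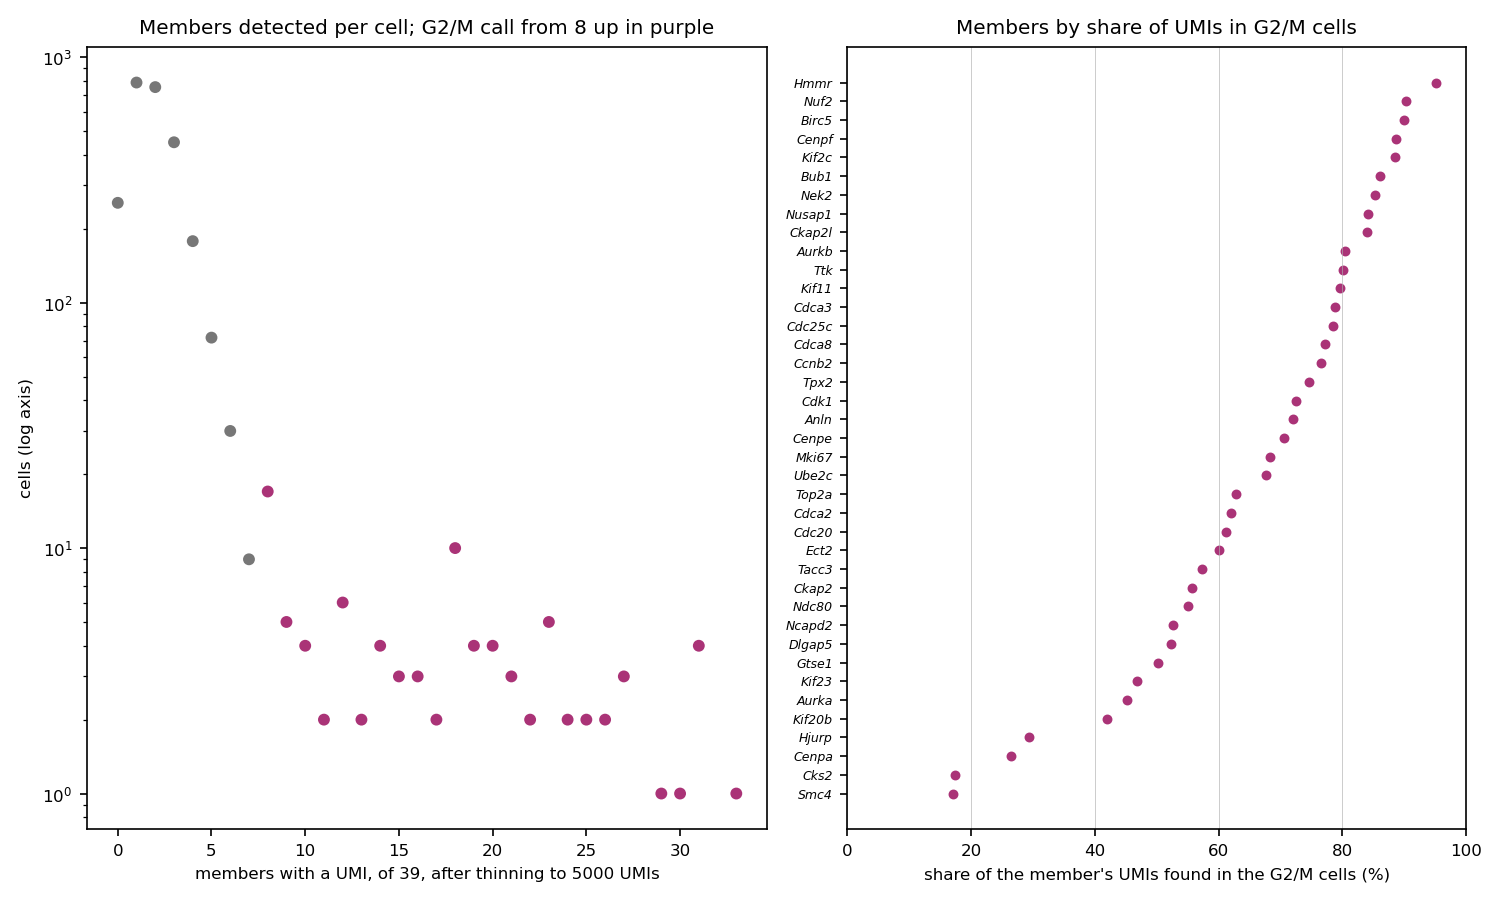
Left, number of cells (log axis) by how many of the 39 members had a UMI after thinning to 5000 UMIs, with the 92 G2/M cells (8 or more members) in purple. Right, for each member the share of all its UMIs that lay in the G2/M cells, from Smc4 (17.0%) to Hmmr (95.1%).

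The members differed in how closely they were confined to these cells. Hmmr, a spindle-associated hyaluronan receptor, had 95.1% of its UMIs in G2/M cells, Nuf2 of the NDC80 kinetochore complex 90.3%, Birc5 (survivin, of the chromosomal passenger complex) 90.0% and Cenpf, a kinetochore protein, 88.6%. Mki67, the source of the proliferation antigen Ki-67, had 68.2% and Top2a, topoisomerase II alpha, 62.8%. At the other end stood Smc4, a condensin subunit, at 17.0%, Cks2, a CDK-binding subunit, at 17.4%, Cenpa, the centromeric histone H3 variant, at 26.4%, and its chaperone Hjurp at 29.4%. Smc4 was found in 89.5% and Cks2 in 60.5% of the cells outside G2/M, against 0.512% for Hmmr. Since the members define the cells, these shares describe the call and were not tested.

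Promoters of the members shared sequence features that their choice did not use. RefSeq promoter sequences (build GRCm38.p6, 250 bases before to 50 bases after the start) matched 33 of the 39 members. The CHR element, searched as TTTGAA on both strands, was present in 24 of the 33 (72.7%), against 20.2% of the 27025 genes in the table. CCAAT, also on both strands, was present in 25 of 33 (75.8%) against 41.1%. Both occurred in 20 of 33 (60.6%) against 8.97%, and their letters shared bases in 1 member promoter. Of the 50 further mitotic genes listed beside the members, 42 had a promoter, with TTTGAA in 25 (59.5%) and CCAAT in 29 (69.0%). The E2F motif TTTCCCGC, typical of S phase genes, was in 0 of 33 member promoters (1.24% of all), TTTGGCGC in 1, Ncapd2 (0.585%), and TATAAA in 1, Kif2c (15.7%). A match describes letters and does not show that a factor binds.

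The 120 bases before the start are shown 5′ to 3′ for the members among those with the clearest radiation differences that had a promoter entry (Cenpe, Ube2c, Cdca8 and Ckap2l) and for 4 of the best-known mitotic genes (Cdk1, Ccnb2, Cdc20 and Top2a). Capitals mark TTTGAA and CCAAT on either strand (TTCAAA and ATTGG when read on the other), and coordinates are on GRCm38.p6, not on the build of the expression data.
Cenpe (chr3:135212443-135212562, + strand): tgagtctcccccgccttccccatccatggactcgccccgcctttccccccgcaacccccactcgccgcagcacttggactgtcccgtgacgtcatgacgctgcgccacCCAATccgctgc
Ube2c (chr2:164769809-164769928, + strand): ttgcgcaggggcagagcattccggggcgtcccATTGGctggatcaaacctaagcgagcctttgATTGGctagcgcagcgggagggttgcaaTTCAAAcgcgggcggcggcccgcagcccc
Cdca8 (chr4:124936918-124937037, - strand): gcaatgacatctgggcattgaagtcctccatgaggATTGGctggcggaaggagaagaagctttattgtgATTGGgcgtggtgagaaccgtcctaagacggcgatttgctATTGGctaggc
Ckap2l (chr2:129297213-129297332, - strand): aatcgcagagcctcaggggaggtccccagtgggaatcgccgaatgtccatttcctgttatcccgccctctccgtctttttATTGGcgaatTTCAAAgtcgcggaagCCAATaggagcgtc
Cdk1 (chr10:69352913-69353032, - strand): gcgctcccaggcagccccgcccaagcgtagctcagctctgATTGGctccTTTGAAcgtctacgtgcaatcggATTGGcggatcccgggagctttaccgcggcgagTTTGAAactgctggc
Ccnb2 (chr9:70421555-70421674, - strand): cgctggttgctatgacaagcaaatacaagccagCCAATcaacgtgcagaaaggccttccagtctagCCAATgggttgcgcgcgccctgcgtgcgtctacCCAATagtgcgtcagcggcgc
Cdc20 (chr4:118437344-118437463, - strand): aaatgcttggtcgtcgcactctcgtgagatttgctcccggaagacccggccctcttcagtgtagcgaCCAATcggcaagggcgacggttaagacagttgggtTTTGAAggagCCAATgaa
Top2a (chr11:99024190-99024309, - strand): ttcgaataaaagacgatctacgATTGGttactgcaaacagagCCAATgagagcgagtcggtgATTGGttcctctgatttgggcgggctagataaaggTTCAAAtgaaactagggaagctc
In this window 7 of the 8 genes held at least 2 CCAAT boxes, and in Cdk1, Ube2c, Ckap2l, Cdc20 and Top2a a CHR element lay between a CCAAT box and the start. Cenpe, the member with the smallest p after radiation, had 1 CCAAT box and no CHR element there, and Cdca8 and Ccnb2 held CCAAT boxes alone within these 120 bases.

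The main comparison asked whether radiation changed the members in tumour T cells. In CD8-like cells 5 members fell with radiation, as the mean of the differences at day 1, at day 3 and under FTY720: Cenpe, Cdca8, Dlgap5, Ube2c and Ckap2l, by 1.76- to 3.40-fold. No member rose. In all 37 of 39 members passed the filter on low counts (Cdc25c and Nek2 did not), 35 of the 37 had a lower fitted level after radiation, and the median log2 fold change was -0.74 against -0.02 over all 10353 genes. Of all genes 3.28% were called lower, against 13.5% of the members tested. Values are CPM of UMIs on TMM-normalised library sizes, and tests are edgeR quasi-likelihood tests adjusted by Benjamini-Hochberg over all genes, with a threshold of 0.05. Nothing in the labels says more of the 2 pools than that they were separate sets of mice, so the p-values rest on the spread between 2 pools per condition.

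Cenpe (ENSMUSG00000045328) encodes a kinesin that carries chromosomes to the spindle equator. It stood at 55.8 and 43.9 CPM in the NT day 1 pools (replicates 1 and 2) and at 15.7 and 10.9 CPM after RT. At day 3 it was 20.9 and 23.7 CPM in NT, 19.6 and 11.8 CPM in RT, 2.43 and 40.8 CPM in FTY720, and 0 and 6.69 CPM in RT with FTY720. The irradiated pools were below their unirradiated counterparts at both times without FTY720, whereas the FTY720 pools overlapped because replicate 1 was low. Cenpe fell by 1.76 ± 0.38 (log2, SE), 3.40-fold (adjusted p = 0.0146).

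Cdca8 (ENSMUSG00000028873), which encodes borealin of the chromosomal passenger complex, stood at 40.3 and 30.3 CPM in NT day 1 and 6.67 and 11.5 CPM in RT day 1. The day 3 pools gave 16.6 and 15.7 CPM in NT, 13.4 and 12.8 CPM in RT, 7.30 and 32.2 CPM in FTY720 and 3.38 and 10.0 CPM in RT with FTY720. The groups were apart at day 1 and, narrowly, at day 3, and overlapped under FTY720. Its log2 fold change was -1.30 ± 0.28 (adjusted p = 0.0157).

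Dlgap5 (ENSMUSG00000037544), a spindle microtubule protein also called HURP, had the smallest standard error of the 5. It stood at 22.8 and 17.9 CPM in NT day 1 against 9.02 and 10.9 CPM in RT day 1, and at 17.0 and 19.6 CPM in FTY720 against 5.07 and 7.80 CPM in RT with FTY720. At day 3 without FTY720 the pools overlapped, at 17.8 and 17.2 CPM in NT and 19.6 and 16.1 CPM in RT. Both within-well comparisons thus separated the groups, and the log2 fold change was -0.82 ± 0.18 (adjusted p = 0.0160).

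Ube2c (ENSMUSG00000001403), the ubiquitin-conjugating enzyme of the anaphase-promoting complex, stood at 38.3 and 56.5 CPM in NT day 1 and 11.8 and 14.5 CPM in RT day 1. It was also lower in both RT day 3 pools (9.78 and 9.63 CPM) than in NT day 3 (22.7 and 25.0 CPM). Under FTY720 the pools were 0 and 36.1 CPM without and 16.9 and 7.80 CPM with radiation, so the groups overlapped there. Ube2c fell by 1.42 ± 0.35 on the log2 scale (adjusted p = 0.0300). Without FTY720 replicate 2 its value was 1.63, in the other direction and not called, and it was called in 10 of 23 alternative settings.

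Ckap2l (ENSMUSG00000048327), a spindle pole protein also called radmis, had 25.7 and 15.4 CPM in NT day 1 and 1.96 and 7.16 CPM in RT day 1. At day 3 it was 9.07 and 9.98 CPM in NT, 9.78 and 11.8 CPM in RT, 2.43 and 18.1 CPM in FTY720 and 0 and 2.23 CPM in RT with FTY720. Radiation pools were lower at day 1 and under FTY720 and not at day 3. The log2 fold change was -1.69 ± 0.47 (adjusted p = 0.0484), the nearest to the threshold of the 5. Cenpf, next in order of p, lay just outside it (-1.49 ± 0.43, adjusted p = 0.0556), with 37.3 and 39.2 CPM in NT day 1 against 2.75 and 6.76 CPM in RT day 1. Its other pools gave 8.77 and 22.7 CPM in NT day 3, 12.2 and 9.63 CPM in RT day 3, 0 and 26.7 CPM in FTY720, and 3.38 and 13.4 CPM in RT with FTY720.

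**Figure D2:**
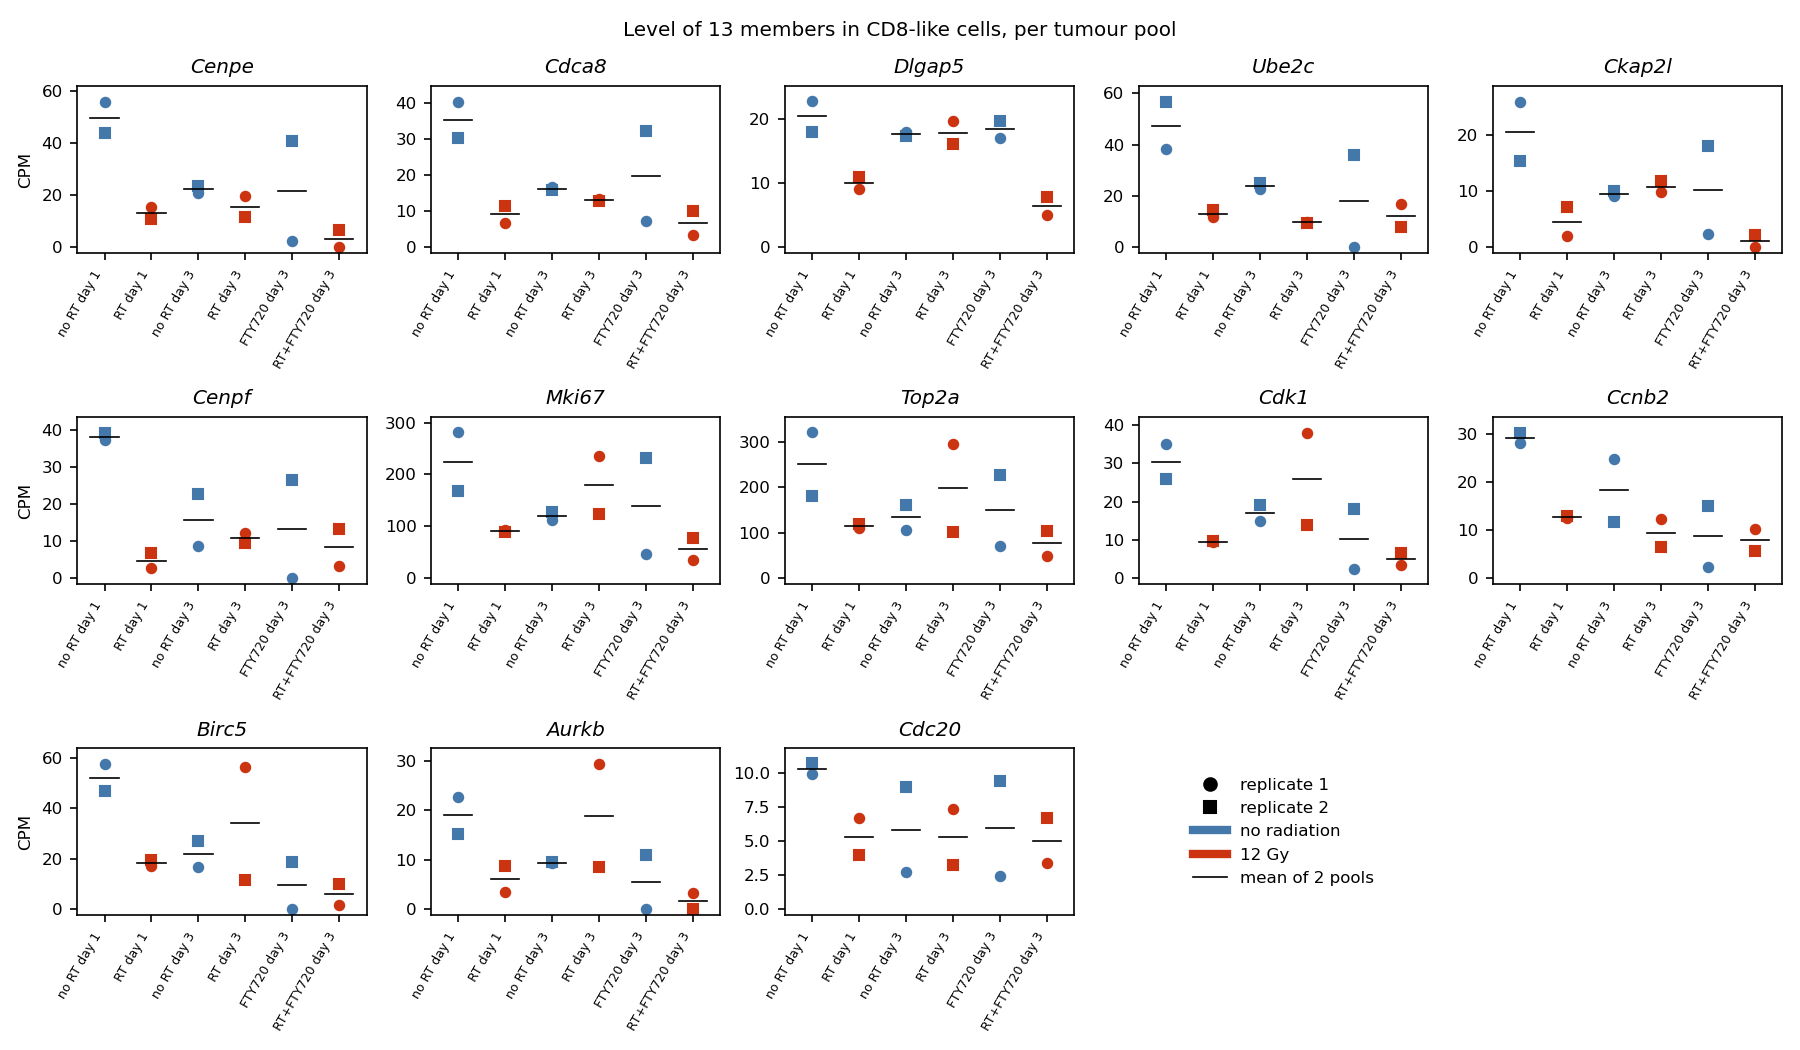
Level (CPM) of 13 members in CD8-like cells for each of the 12 tumour pools, with unirradiated pools in blue, irradiated pools in red, circles for replicate 1, squares for replicate 2 and a line at the mean of the 2 pools. In each panel both RT day 1 pools lie below both NT day 1 pools, and the FTY720 pools lie far apart from each other in most.

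The count of 5 rested on particular pools and cells. FTY720 replicate 1 had 19 CD8-like cells and 249 member UMIs with 0 G2/M cells, and FTY720 replicate 2 had 2035 member UMIs with 2 G2/M cells. Without FTY720 replicate 2 the count was 0, and Ube2c (1.63), Cenpf (1.42), Birc5 (2.11) and Aurkb (1.49) had positive log2 fold changes, while without replicate 1 the count was 8. It was 3 without NT day 1 replicate 2, NT day 3 replicate 2, RT day 1 replicate 1, either RT day 3 pool or RT with FTY720 replicate 1. With the replicate number as a block it was again 5, with Cenpf (adjusted p = 0.0329) in place of Ckap2l (adjusted p = 0.0548). It was 1 (Cenpe) when the 90 cells with 2 or more TCR beta chains were left out, with a median member log2 fold change of -0.31, and 1 (Cenpe again, -2.33, adjusted p = 0.0151) of 25 tested when the G2/M cells were. Over the within-well comparisons alone, 4 members fell (Cenpe, Cdca8, Dlgap5 and Ckap2l) against 1.05% of all genes, with a median of -1.25. For the other settings in this paragraph the share of all genes called is not given.

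At day 1, within the same wells, the members as a group were lower in irradiated CD8-like cells. Of the 37 tested, 35 had both RT pools below both NT pools and 0 had both above, while 19.4% of all genes tested had both RT pools below and 19.9% both above. Gtse1 and Kif23 were the members that overlapped. The members are found together in the same cells, so these counts are not separate observations. The 92 G2/M cells of all lineages held 47.9% of all member UMIs, and 31 CD8-like ones came from NT day 1 and 12 from RT day 1. The summed level of the 39 members was 2057 and 1504 CPM in NT day 1 and 857 and 872 CPM in RT day 1. All 37 fitted log2 fold changes were negative, with a median of -1.29 against 0.00 over all genes, from -2.87 for Cenpf to -0.12 for Gtse1. None passed the adjusted threshold by edgeR, where 28 of 37 had an unadjusted p under 0.05 and 0.00966% of all genes were called lower (smallest adjusted p of a member 0.122, Cdca8). DESeq2 called 1 member, Cdca8 (adjusted p = 0.0477). In edgeR 4 were called (Cdca8, Cenpe, Cenpf and Ube2c) without either FTY720 pool. Neither pool enters the day 1 difference, but both enter the estimate of spread. The share of all genes called is not given for DESeq2 or for these reduced fits.

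The best-known proliferation genes followed that order without passing the test over the 3 comparisons. Mki67 stood at 281 and 168 CPM in NT day 1 against 93.3 and 88.5 CPM in RT day 1, and at 112 and 129 CPM in NT day 3 against 235 and 123 CPM in RT day 3. Under FTY720 it was 46.2 and 232 CPM without and 35.5 and 78.0 CPM with radiation. Its log2 fold change was -0.71 ± 0.29 (adjusted p = 0.167).

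Top2a, whose product untangles DNA before chromosomes part, gave 321 and 181 CPM in NT day 1 and 109 and 119 CPM in RT day 1. At day 3 it was 105 and 162 CPM in NT, 296 and 103 CPM in RT, 70.5 and 228 CPM in FTY720 and 49.0 and 105 CPM in RT with FTY720. The 2 RT day 3 pools enclosed the NT range, and the log2 fold change was -0.54 ± 0.30 (adjusted p = 0.329).

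Cdk1, the kinase that starts mitosis, was 35.0 and 25.9 CPM in NT day 1 and 9.41 and 9.75 CPM in RT day 1. Its other pools were 14.8 and 19.1 CPM (NT day 3), 37.9 and 13.9 CPM (RT day 3), 2.43 and 18.1 CPM (FTY720) and 3.38 and 6.69 CPM (RT with FTY720). Its partner Ccnb2, a B-type cyclin, was 28.0 and 30.1 CPM in NT day 1 and 12.5 and 12.9 CPM in RT day 1, then 24.8 and 11.7 CPM in NT day 3, 12.2 and 6.42 CPM in RT day 3, 2.43 and 14.9 CPM in FTY720 and 10.1 and 5.57 CPM in RT with FTY720. For both the day 1 groups did not overlap, and over the 3 comparisons neither passed (Cdk1 -0.80 ± 0.33, adjusted p = 0.172, and Ccnb2 -0.91 ± 0.33, adjusted p = 0.118).

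Of the passenger complex, Birc5 was 57.4 and 46.9 CPM in NT day 1 and 17.3 and 19.5 CPM in RT day 1. At day 3 it was 16.6 and 27.1 CPM in NT, 56.2 and 11.8 CPM in RT, 0 and 18.8 CPM in FTY720 and 1.69 and 10.0 CPM in RT with FTY720. Aurkb, its kinase, was 22.8 and 15.3 CPM in NT day 1 and 3.53 and 8.75 CPM in RT day 1, then 9.38 and 9.47 CPM in NT day 3, 29.3 and 8.56 CPM in RT day 3, 0 and 11 CPM in FTY720 and 3.38 and 0 CPM in RT with FTY720. RT day 3 replicate 1, with 2 G2/M cells among 26, was the highest day 3 pool for both genes. Neither passed (Birc5 -0.64 ± 0.43, adjusted p = 0.425, and Aurkb -1 ± 0.56, adjusted p = 0.330).

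Cdc20, the activator of the anaphase-promoting complex, was 9.90 and 10.7 CPM in NT day 1 and 6.67 and 3.98 CPM in RT day 1. The other pools gave 2.72 and 8.96 CPM (NT day 3), 7.33 and 3.21 CPM (RT day 3), 2.43 and 9.42 CPM (FTY720) and 3.38 and 6.69 CPM (RT with FTY720). At day 3 the groups overlapped with and without FTY720 (-0.58 ± 0.42 over the 3 comparisons, adjusted p = 0.456).

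By role, members called lower over the 3 comparisons were 1 of 6 tested kinase, checkpoint and passenger genes (Cdca8), 1 of 6 kinetochore and centromere genes (Cenpe), 2 of 11 spindle and motor genes (Dlgap5 and Ckap2l) and 1 of 3 anaphase genes (Ube2c). None of the 3 cyclin-CDK genes tested, the 5 chromosome structure genes or the 3 cytokinesis genes was called. Over all genes tested 3.28% were called lower. With at most 2 calls in a role the counts cannot rank the roles, and differences between roles were not tested. The group medians ran from -1.11 for the kinases to -0.64 for the spindle genes. Cenpa (0.09 ± 0.16) and Ckap2, a spindle protein (0.06 ± 0.36), were the members with a positive fitted value.

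**Figure D3:**
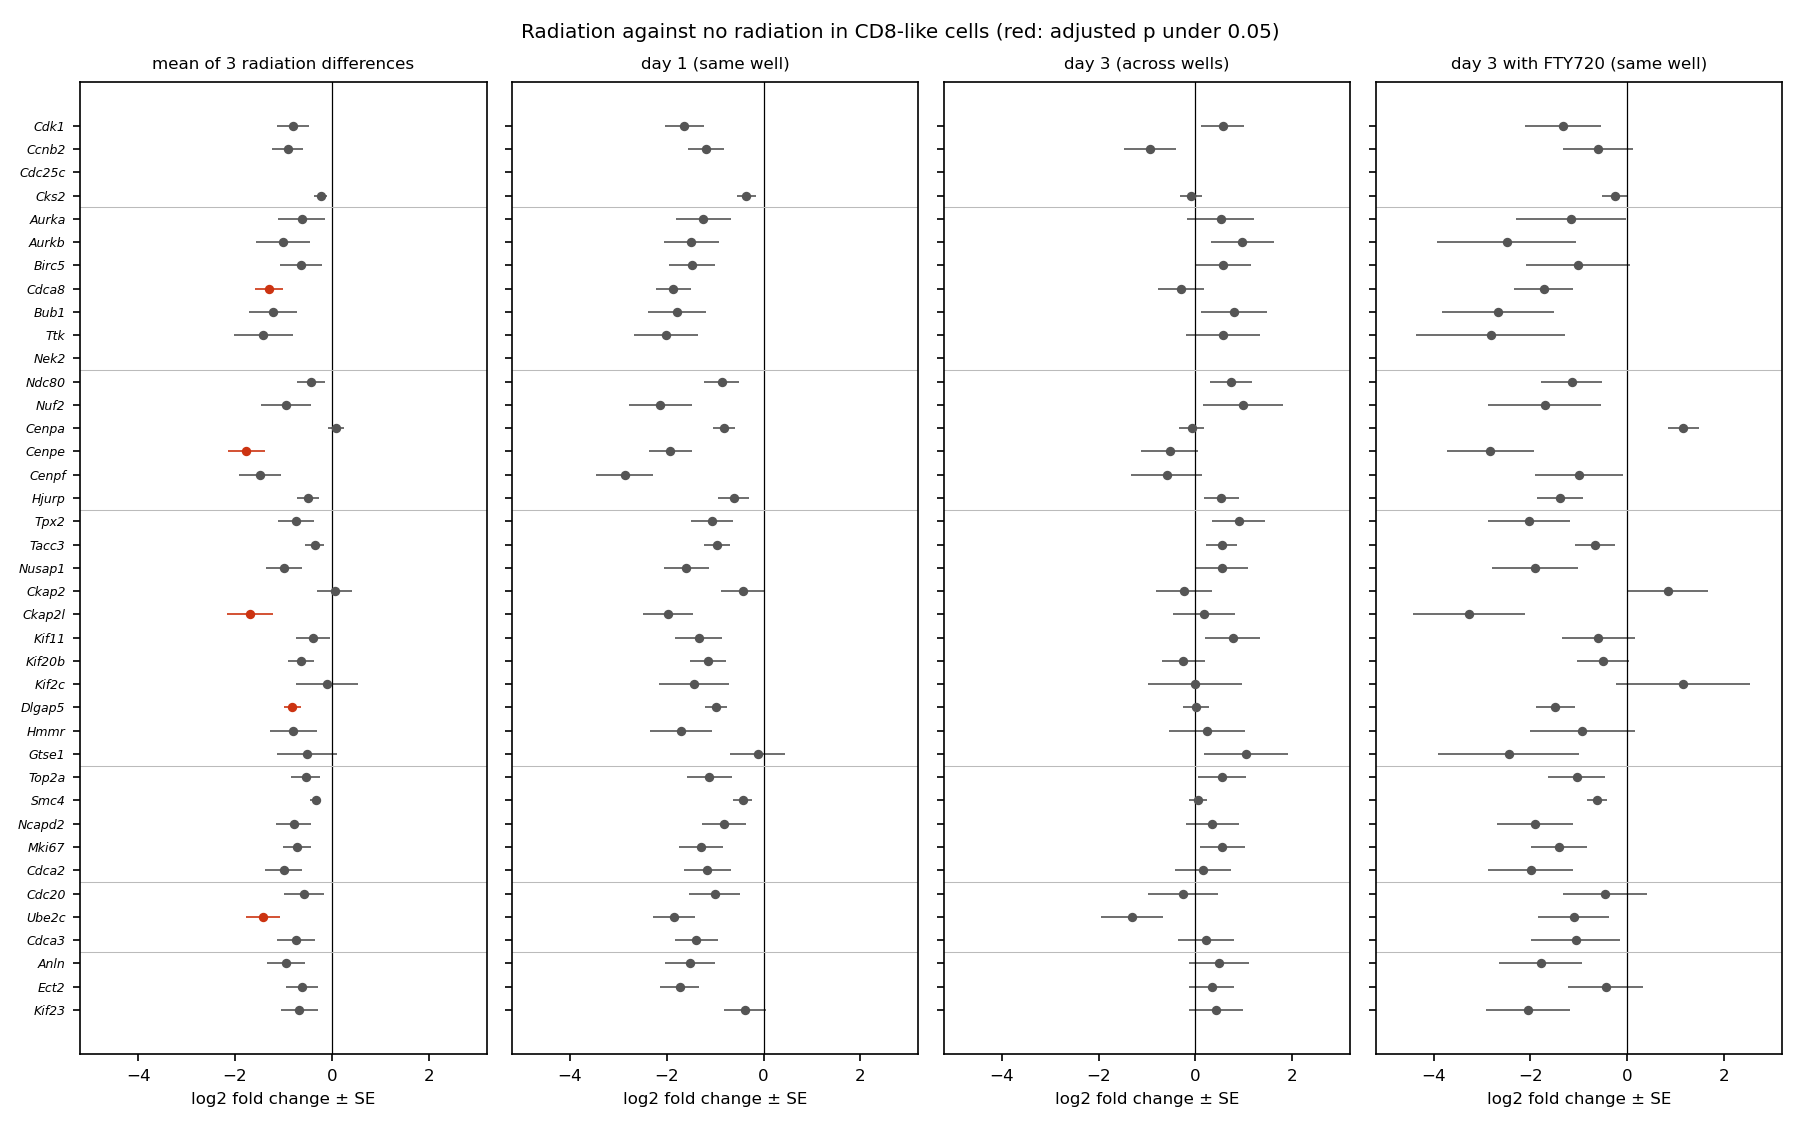
Log2 fold change (± SE) of each of the 37 members tested in CD8-like cells, radiation against no radiation, for the mean of the 3 comparisons and for each one, with members called at an adjusted p under 0.05 in red and grey lines between roles. The day 1 values are all below 0, whereas at day 3 without FTY720 26 of 37 are above 0.

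At day 3 without FTY720 the order at day 1 was not seen, while under FTY720 most members had a lower fitted level after radiation, with overlapping pools. Without FTY720, where RT and NT lay in different wells, 26 of 37 members had a positive and 11 a negative log2 fold change, with a median of 0.35 against -0.02 over all genes. None was called by edgeR and 0 had an unadjusted p under 0.05 (1.42% of all genes were called lower). The RT pools were both below both NT pools for 4 of the 37, against 25.8% of all genes, and both above for 7, against 21.9%. The summed levels were 1009 and 1241 CPM in NT and 1634 and 1073 CPM in RT, the RT pools having 26 and 43 cells of known G2/M state. Under FTY720, within wells, 34 of 37 members had a negative and 3 a positive log2 fold change, with a median of -1.16. There 0 members were called (1.64% of all genes called lower), and 13 had an unadjusted p under 0.05, 12 of them negative. The summed levels were 606 and 1598 CPM in FTY720 and 568 and 778 CPM in RT with FTY720, so FTY720 replicate 2 stood apart. Both RT pools were below both others for 5 of 37, against 21.7% of genes. Cenpa went the other way there (1.16 ± 0.32, adjusted p = 0.0723).

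The difference between the radiation effects at day 3 and at day 1 was tested in the same fit. All 37 members had a higher value at day 3, with a median of 1.59 against -0.01 over all genes, and 20 had an unadjusted p under 0.05. None was called (smallest adjusted p 0.175, Cdk1, at 2.20 ± 0.60), where 0.241% of all genes were, in either direction. The day 3 part of this difference lay across wells, where well and treatment cannot be told apart. Pool size differed too. The CD8-like RT day 3 pools held 26 and 43 cells of known G2/M state, and the RT day 1 pools 100 and 201. The part of pool size in this difference was not tested.

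Without radiation, the members were lower at day 3 than at day 1 in the same wells. Of the 37, 31 had both day 3 pools below both day 1 pools, against 22.3% of all genes, and the median log2 fold change was -0.89 against 0.00. None was called (0% of all genes were, by edgeR), although 15 had an unadjusted p under 0.05, and DESeq2 called 0. Nuf2 had the largest difference (-1.99 ± 0.62, adjusted p = 0.619). FTY720 against NT at day 3, across wells, gave 0 called members and 0% of all genes by edgeR, with 1 member at an unadjusted p under 0.05 (Cenpa, at -0.98 ± 0.29) and a median of 0.24.

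**Figure D4:**
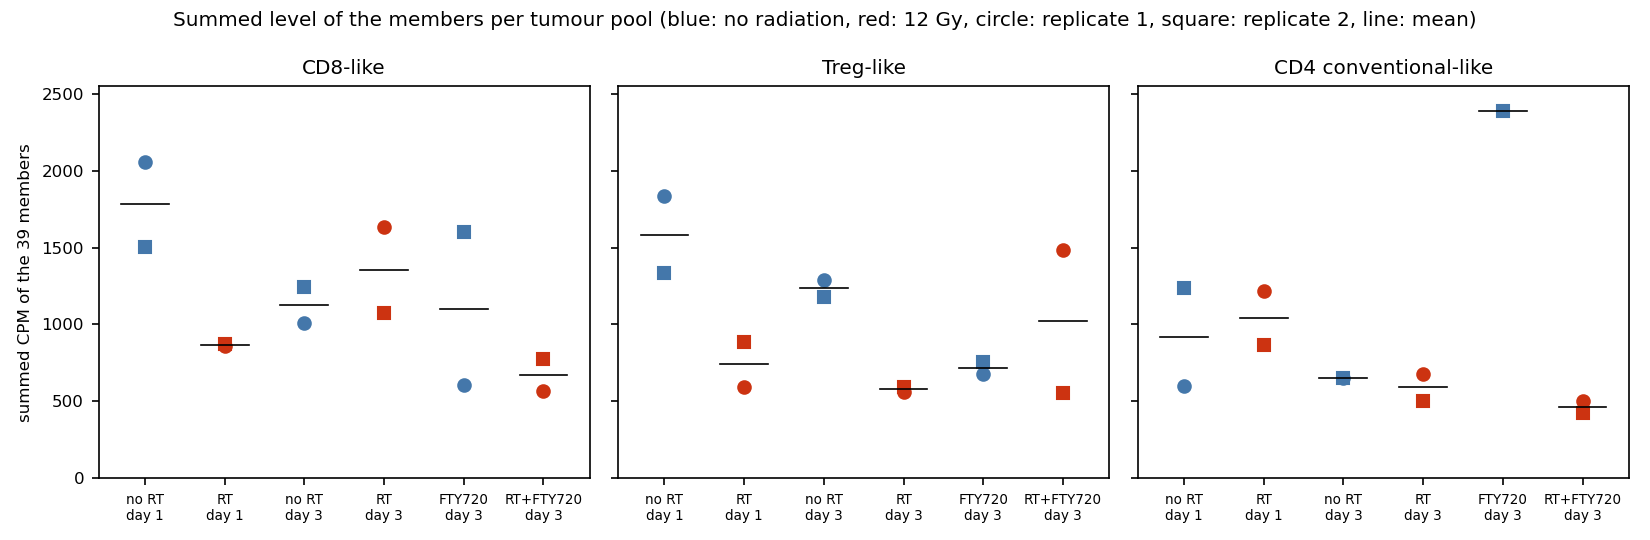
Summed level (CPM) of the 39 members per tumour pool in the 3 lineages, unirradiated pools in blue and irradiated in red, circles for replicate 1, squares for replicate 2 and a line at the mean. In CD8-like and Treg-like cells both RT day 1 pools lie below both NT day 1 pools, and in CD4 conventional-like cells, where FTY720 replicate 1 had fewer than 5 cells and is left out, FTY720 replicate 2 stands highest.

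In Treg-like cells the members were also lower at day 1 after radiation, with no member called over the 3 comparisons. The summed level was 1833 and 1333 CPM in NT day 1 against 596 and 884 CPM in RT day 1, and 1289 and 1179 CPM in NT day 3 against 564 and 593 CPM in RT day 3. Of 23 members tested, 21 had both RT pools below both NT pools at day 1 (16% of all genes) and 21 at day 3 (22%). The RT day 3 pools held 12 and 21 cells of known G2/M state and 114 and 238 member UMIs. Birc5, Cdca8, Cenpf, Kif11 and Ube2c had 0 UMIs in both. The members are found together in the same cells, so these counts are not separate observations. At day 3 RT and NT lay in different wells. The unirradiated FTY720 pools, in the wells of RT day 3, were also lower than NT day 3. There 22 of 23 fitted values were negative, with a median of -1.73, 10 at an unadjusted p under 0.05 by edgeR and 0 called (0% of all genes). Well and treatment cannot be told apart in either comparison. Under FTY720 the pools had 7 to 23 cells of known G2/M state, and the order was not the same: the summed level was 677 and 757 CPM in FTY720 and 1485 and 555 CPM in RT with FTY720. There 16 of 23 members had a positive fitted value, with a median of 1.32, and 2 had both RT pools below (17.5% of all genes) and 2 both above (16.6%). Over the within-well comparisons alone the median was -0.11, and over all 3 it was -0.72.

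Mki67 in Treg-like cells was 271 and 159 CPM in NT day 1 and 40.6 and 78.3 CPM in RT day 1, then 193 and 131 CPM in NT day 3 and 39.6 and 59.8 CPM in RT day 3. It was 109 and 25.8 CPM in FTY720 and 464 and 17.5 CPM in RT with FTY720. Top2a was 267 and 143 CPM in NT day 1, 71.4 and 73.5 CPM in RT day 1, 183 and 111 CPM in NT day 3, 59.4 and 57.4 CPM in RT day 3, 16.7 and 62.4 CPM in FTY720 and 63.8 and 46.7 CPM in RT with FTY720. Both genes separated the groups at day 1 and at day 3 and overlapped under FTY720. Over the 3 comparisons neither passed (Top2a -0.88 ± 0.27, adjusted p = 0.148, and Mki67 -0.35 ± 0.48, adjusted p = 0.845). By edgeR 6 of 23 had an unadjusted p under 0.05 and 0 were called, with 0.229% of all genes called lower. DESeq2, for which no share of all genes is given, called 1, Kif11, the spindle motor Eg5.

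In CD4 conventional-like cells the day 1 pools overlapped. The summed level was 601 and 1236 CPM in NT day 1 and 1215 and 869 CPM in RT day 1, 652 and 649 CPM in NT day 3 and 676 and 505 CPM in RT day 3. The FTY720 pool was 2386 CPM and those of RT with FTY720 506 and 424 CPM. The FTY720 pool was replicate 2 alone, with 12 cells of known G2/M state of which 1 was G2/M, and its partner was left out of the fit. Mki67 was 49.2 and 142 CPM in NT day 1 and 86.7 and 87.0 CPM in RT day 1, 51.2 and 61.4 CPM in NT day 3 and 50.7 and 39.1 CPM in RT day 3, 334.5 CPM in FTY720 and 51.3 and 18.7 CPM in RT with FTY720. Its log2 fold change was -1.29 ± 0.30 (adjusted p = 0.0595). By edgeR 0 of 25 members were called (0.14% of all genes were called lower) and 7 had an unadjusted p under 0.05. DESeq2, for which no share of all genes is given, called 1, Mki67. With that pool the median member log2 fold change under FTY720 was -3.30, against 0.01 at day 1. Whether radiation acted differently on the members in the 3 lineages was not tested.

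The share of G2/M cells counts cells with many members, and a cell that carries less of each member can fall below the 8 required. In CD8-like cells it was 11.1% (11 of 99) and 7.02% (20 of 285) in NT day 1, and 6% (6 of 100) and 2.99% (6 of 201) in RT day 1. At day 3 it was 4.38% (6 of 137) and 4.12% (10 of 243) in NT, 7.69% (2 of 26) and 2.33% (1 of 43) in RT, 0 of 18 and 3.77% (2 of 53) in FTY720, and 0 of 26 and 2.27% (1 of 44) in RT with FTY720. The day 1 groups did not overlap between pools, while their exact 95% binomial intervals did (5.68 to 19.0% and 4.34 to 10.6% against 2.23 to 12.6% and 1.1 to 6.38%). For the 2 counts of 0 the limit of 3 counts is 16.7% and 11.5%, and the exact intervals reach 18.5% and 13.2%. Averaged over the 3 comparisons, irradiated pools were 1.52 percentage points lower (3.55% ± 2.80 against 5.07% ± 3.72, SD, n = 6 pools each), which did not pass an exact two-sided permutation test within comparisons (p = 0.352, adjusted over 6 tests 0.528, where 0.00926 is the smallest p the design allows). The difference was -4.57 points at day 1, 0.76 at day 3 and -0.75 under FTY720.

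**Figure D5:**
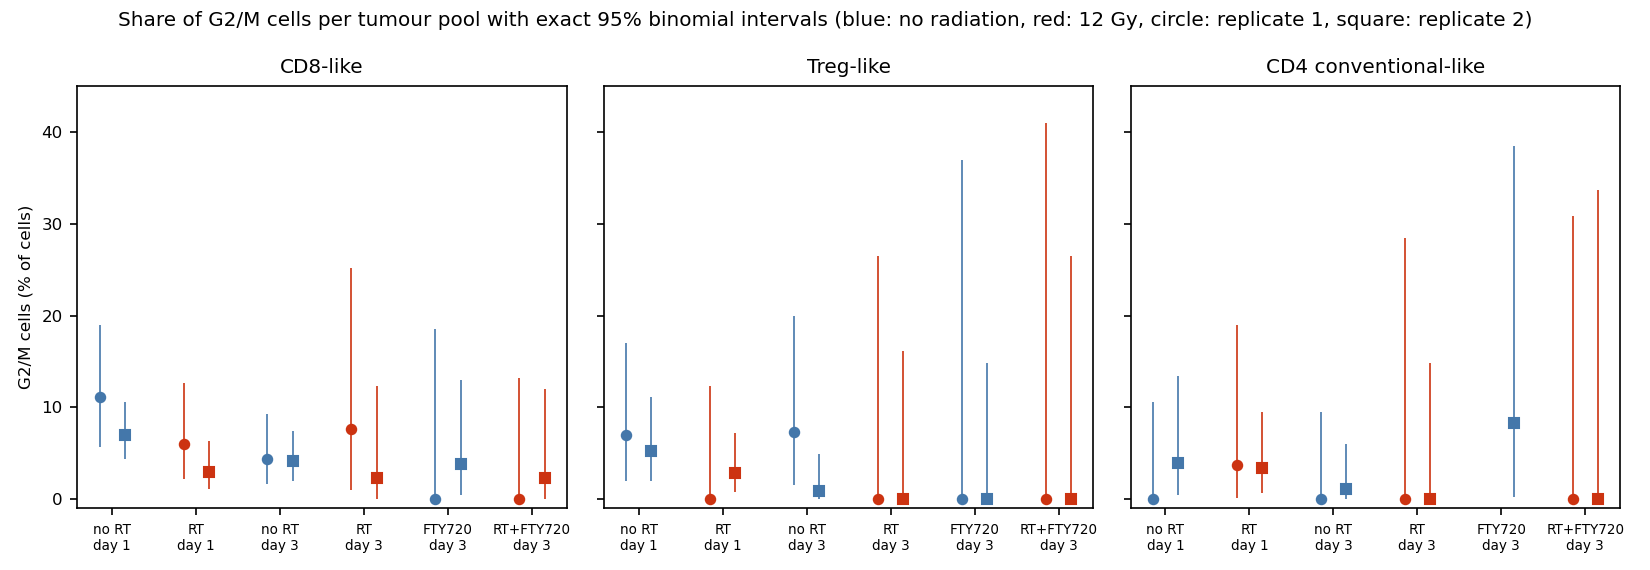
Share of G2/M cells (%) per tumour pool in the 3 lineages with exact 95% binomial intervals, unirradiated pools in blue, irradiated in red, circles for replicate 1 and squares for replicate 2. The 6 CD8-like pools of the last 3 conditions had 18 to 53 cells, and their intervals reach 12.0 to 25.1%.

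In Treg-like cells the share was 7.02% (4 of 57) and 5.26% (6 of 114) in NT day 1, 0 of 28 and 2.86% (4 of 140) in RT day 1, and 7.32% (3 of 41) and 0.909% (1 of 110) in NT day 3. No G2/M cell was found in the 6 other pools, of 7 to 23 cells. The irradiated pools were 2.94 percentage points lower on average, at the smallest p of the 6 share tests (exact permutation p = 0.0556, adjusted 0.333). The groups did not overlap at day 1 or at day 3, and every pool with FTY720 was at 0. No arrangement of these values could therefore give a smaller p. In CD4 conventional-like cells the difference was -2.44 percentage points (exact permutation p = 0.194, adjusted 0.5), with 8 G2/M cells in all. It was 1.58 at day 1, -0.55 at day 3 and -8.33 under FTY720, the last from 1 G2/M cell among 12 in a single pool. No share comparison passed. For radiation the smallest exact permutation p the design allows was 0.00926 in CD8-like and Treg-like cells and 0.0185 in CD4 conventional-like cells. With 6 tests adjusted together, none of these could pass 0.05 unless other share tests were small too. Unthinned, when deep cells pass more easily, the CD8-like share was 30.3% and 22.1% in NT day 1 against 16.0% and 15.9% in RT day 1, and the mean difference over the 3 comparisons was -8.78 percentage points (exact permutation p = 0.00926, adjusted 0.0469). Median depth over the cells of all lineages was 23606 and 22135 UMIs in NT day 1 and 20818.5 and 19408 UMIs in RT day 1. The part of depth in that difference was not tested.

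Within the CD8-like G2/M cells the members were at 7609 and 9500 CPM in the NT day 1 pools (11 and 20 cells), 4117 and 7109 CPM in RT day 1 (6 and 6 cells) and 5749 and 9037 CPM in NT day 3 (6 and 10 cells). The highest RT day 1 pool was below both NT day 1 pools, and the NT day 3 pools spanned most of that range. The median number of members left after thinning was 18 and 18 in NT day 1 and 12 and 16.5 in RT day 1. These levels describe cells chosen by the same genes and were not tested, and no other condition had 5 such cells in a CD8-like pool.

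TCR sequences gave the clonal state of most G2/M cells. Among CD8-like cells with a beta chain, 31 of 63 G2/M cells (49.2%) shared their clone with another cell, as did 563 of 1159 other cells (48.6%). In Treg-like cells it was 0 of 17 against 73 of 503 (14.5%). In NT day 1 the CD8-like G2/M cells in clones were 3 of 11 and 12 of 20, against 45.2% and 66.1% of the other cells there. They were 3 of 5 and 5 of 6 in RT day 1, against 38.9% and 40.1%, and 4 of 6 and 3 of 9 in NT day 3, against 58.9% and 50.2%. Cells of a clone are not independent, so these shares were not tested.

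Red and green cells of the same pool were compared next, with the hashtag names of the matrices, which in replicate 2 go against the tag numbers of the labels. In CD8-like cells 11 members passed the filter, 0 were called by edgeR (6.93% of all genes were), and 1 had an unadjusted p under 0.05. That member was Cenpa, at 0.66 ± 0.20 (red minus green, log2, adjusted p = 0.0525), higher in red cells of 10 of 12 pools. DESeq2 called it, with the label colours the value was -0.20 (adjusted p = 1.00), and adjusted p over its alternatives ran from 1.58e-05 to 1.00. In Treg-like cells 0 of 9 members were called by either tool (2 at an unadjusted p under 0.05, 1.85% of all genes called by edgeR), with Cenpa again the smallest at 0.78 ± 0.25 (adjusted p = 0.119, higher in red cells of 7 of 8 pools). In CD4 conventional-like cells it was 0 of 6 by either tool (0 at an unadjusted p under 0.05, 0.149% of all genes). The G2/M share differed by 0.74 percentage points in CD8-like (red minus green, exact permutation p = 0.719, adjusted 0.719), 1.51 in Treg-like (exact permutation p = 0.25, adjusted 0.5) and -0.70 in CD4 conventional-like cells (exact permutation p = 0.625, adjusted 0.719), each over pools with at least 5 cells of both colours.

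Other genes of the pathway were read in the same CD8-like fit over the 3 comparisons, in which 3.28% of all genes were called lower and 4.48% higher. Of 50 further mitotic genes, 47 were tested, 7 fell and 1 rose. Those that fell included Cenpm (-2.31 ± 0.51) and Knl1 (-1.47 ± 0.33) of the kinetochore, Cep55 of abscission (-1.28 ± 0.30), the tubulin-binding Stmn1 (-1.28 ± 0.30), Cks1b (-0.88 ± 0.24) and the condensin subunit Smc2 (-0.77 ± 0.20), the 6 with the largest change. Pttg1, securin, rose (0.90 ± 0.16, adjusted p = 0.00434). Of 44 S phase genes, all tested, 11 fell and 0 rose, among them the uracil glycosylase Ung (-1.63 ± 0.34), Gins2 of the replicative helicase (-0.85 ± 0.22), the helicase Blm (-0.84 ± 0.23), the thymidylate synthase gene Tyms (-0.81 ± 0.20) and Cdca7 (-0.77 ± 0.21). The S phase median was -0.57 and 44 of 44 fitted values were negative.

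Of the upstream regulators, the cell cycle inhibitor Cdkn1a (p21) rose in irradiated CD8-like cells by 2.13 ± 0.17 (adjusted p = 4.2e-05), from 20.1 ± 1.89 to 99.2 ± 18.3 CPM at day 1 (SD, n = 2 pools). It rose at each time: by 2.27 ± 0.25 at day 1, 1.31 ± 0.28 at day 3 and 2.80 ± 0.37 under FTY720. Among 19 tested CDK inhibitor and checkpoint genes 3 rose, Cdkn1a, the p53 target Ccng1 (0.97 ± 0.12) and Btg2 (0.43 ± 0.10), and Cdkn2c fell (-1.22 ± 0.34). Among 17 activators and repressors Rbl2 (p130 of the DREAM complex) rose by 0.40 ± 0.09 and 0 fell, 1 of 17 being near the share of all genes called higher. Plk1 (-0.89 ± 0.42, adjusted p = 0.234), Foxm1 (-0.55 ± 0.46, adjusted p = 0.528) and Ccnb1 (0.17 ± 0.38, adjusted p = 0.859) did not pass. At day 1 all 3 had both RT pools below both NT pools: Plk1 at 3.36 ± 0.87 against 12.7 ± 1.69 CPM, Foxm1 at 3.85 ± 0.10 against 8.43 ± 2.08 CPM and Ccnb1 at 6.22 ± 0.63 against 11.4 ± 0.23 CPM (SD, n = 2 pools).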

How the data were processed

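Expression came from 4 hashed 10x wells (5' chemistry GEM-X v3, as the labels' protocols state). The matrices, deposited as raw counts of UMIs, were made with Cell Ranger 8.0.1 and mm39 (submitters' processing notes). Deposited counts per TCR contig gave clones and beta chains. The members and lists were chosen with earlier results of these data known.

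Of 2816 barcodes 2740 were kept: those detecting 500 genes or more, with a mitochondrial share up to 10%, and a top hashtag of 20 UMIs or more and 3 times the next. No doublet caller was run. Clusters (scanpy 1.11.5) were built without 199 cell cycle and histone genes and named from markers, with mixed clusters split on lineage genes (69 of the 92 G2/M cells lay there). UMI counts were summed per pool and lineage (at least 5 cells) and tested with edgeR 4.0.16 (filterByExpr, TMM, glmQLFTest on 6 condition means, 6 residual degrees of freedom for CD8-like cells). DESeq2 1.42.0 served as an alternative, and shares of all genes called come from the main edgeR fits alone. Of 200 genes changed in simulated counts of 10353 genes for the CD8-like radiation comparison, 73% were recovered at a log2 change of 1 and 100% at 2, with 7 false calls. Recovery was not measured for the members alone or for single comparisons. At day 1 Cenpf, at -2.87, was not called. Shares were tested by exact permutation (scipy 1.17.1). Intervals and limits at 0 (3 counts) cover counting error only.

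Replicate numbers mark a shared well, per the labels' titles. Deviations of same-numbered CD8-like pools in a well correlated at a median of -0.01 (-0.03 to 0.07). Named with values in every pool were 8 representatives and the 6 members with the smallest p in CD8-like cells. Also named were members called in any comparison and, of other lists, called genes, at most 6 per direction.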

Additional observations from a re-analysis of the deposited data

Results flagged for a closer look

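The share of G2/M cells among CD8-like cells, as red minus green in the same pool, went in opposite directions in conditions of the study, and the difference between conditions was not tested. In NT day 3 red cells were lower in both pools, by a mean of 7.69 percentage points (-7.69). In NT day 1 the mean was -5.91, with -10.8 in replicate 1 and only -1.04 in replicate 2. The RT day 1 pools differed in direction, at 7.59 and -0.21. In RT day 3 red cells were higher in both pools, by 8.67 percentage points, from 3 G2/M cells among 40 red and 0 among 29 green. The NT day 3 value came from 1 G2/M cell among 184 red and 15 among 196 green. The colours follow the hashtag names of the matrices, and with the label colours the replicate 2 pools change sign. The RT day 3 and NT day 3 pools lay in different wells.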

How the results depend on the processing

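The count of 5 members called in CD8-like cells stayed 5 with DESeq2 size factors, with DESeq2, with at least 10 cells per sum and with the replicate block, was 4 with lineage from lineage genes alone and in the within-well comparisons, and moved to 22 with no filter on low counts, 8 in green cells alone, 0 in red cells alone, 1 without cells with 2 or more TCR beta chains and 1 without the G2/M cells (chosen after seeing the data). Leaving out 1 pool at a time gave 0 to 8. The block exchanged Ckap2l for Cenpf and changed no other call among the CD8-like genes named in every pool. At day 1, run with alternatives chosen after seeing the data, the CD8-like count of 0 became 1 with DESeq2, 25 with no filter, 3 without cells with 2 or more beta chains and 0 to 4 without 1 pool, and the Treg-like count 8 with no filter. Day 3 against day 1 without radiation gave 12 CD8-like members with no filter. For radiation the Treg-like count was 1 with DESeq2 and 2 with no filter. The CD4 conventional-like count was 1 with DESeq2, 6 with no filter, 1 with lineage from lineage genes alone and 0 to 3 without 1 pool (3 without NT day 1 replicate 1). Red against green gave 1 CD8-like member (Cenpa) with DESeq2, no filter or no pool block and 0 to 1 without 1 pool, and 7 Treg-like members with no filter. Except for the within-well comparisons, the share of all genes called is not given for these settings. Their counts therefore cannot be read as particular to the members. Apart from unfiltered low counts, the cause of these changes was not tested.

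Without FTY720 replicate 2 the CD8-like log2 fold changes turned positive for Cdk1 (0.015, against a lowest value of -1.09 without another pool), Birc5 (2.11, lowest -1.30), Aurkb (1.49, lowest -2.69), Cenpf (1.42, lowest -1.98) and Ube2c (1.63, lowest -1.61), none of them called, and in red cells alone for Mki67 (0.31), Top2a (0.079), Ccnb2 (0.047) and Birc5 (0.54). Cenpe, Cdca8, Dlgap5 and Ckap2l were negative in every alternative run, and Cenpe was called in 21, Cdca8 in 19, Dlgap5 in 16 and Ube2c in 10 of 23 and Ckap2l in 7 of 22. For G2/M shares, leaving cells unthinned brought CD8-like radiation (-8.78 percentage points) and Treg-like red against green (4.24) past the threshold, and the other alternatives, another thinning draw among them, passed none. Without 1 pool the CD8-like radiation difference ran from -2.41 to -0.63 points, the Treg-like from -4.01 to -1.87 and the CD4 conventional-like from -3.09 to 0.51. The small day 3 pools limit every comparison that includes them.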
